A study of Mus musculus with 4 samples.

Results

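Non-cycling Gfra1+ spermatogonia are the cells of the undifferentiated spermatogonial pool (A_undiff) that transcribed Gfra1, carried few transcripts of mitotic genes and showed little sign of progenitor fate. They were chosen from single-cell RNA-seq by measured transcripts, counted as unique molecular identifiers (UMIs). A cell had to hold over 1000 genes and under 20% of its UMIs from mitochondrial genes. Of the cells that passed, those kept had a natural log of 1 plus Gfra1 UMIs per 100000 above 2 and under 30 UMIs per 100000 from Top2a, Mki67, Cdc20, Ube2c, Aurka and Aspm together. They also held no UMI of Neurog3 and at most 1 UMI of Sox3. This gave 670 of 7493 passing cells (8.94%), which were 30.6% of the 2192 cells above the Gfra1 threshold. The 9 genes of the rule describe the cells and were left out of every test.

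A_undiff had been sorted from wild-type mice aged 6 to 8 weeks as E-Cadherin+, α6-integrin+ and c-KIT- cells. CTRL mice were untreated and BU mice had received 1 injection of busulfan (10 mg/kg), an alkylating drug that depletes spermatogonia, with testes taken at day 10 (D10). The work was done as 2 experiments, with a CTRL and a BU library in each (CTRL 1 with BU 1, CTRL 2 with BU 2), and every library held cells pooled from 3 mice, so each group had n = 2 libraries and the spread between single mice was not measured. The labels name version 2 of the 3′ droplet kit for experiment 1 and version 3.1 for experiment 2, whereas the study's methods name version 2 without a distinction, so what sets the experiments apart is not settled. By the labels the libraries of an experiment shared a sequencing lane.

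GFRα1 is the co-receptor through which glial cell line-derived neurotrophic factor (GDNF), made by Sertoli cells, acts on the receptor tyrosine kinase RET to keep spermatogonial stem cells self-renewing. GFRα1+ spermatogonia are mostly single cells and short chains at the top of the hierarchy, and they give rise to progenitors that express Neurog3, Sox3 and Upp1. Busulfan depletes spermatogonia, and GFRα1+ cells that survive can rebuild the pool.

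CTRL 1 contributed 226 cells and BU 1 contributed 215, while CTRL 2 contributed 70 and BU 2 contributed 159. For CTRL 1, CTRL 2, BU 1 and BU 2 in turn they held 1559434, 1698828, 1907373 and 4278337 UMIs, with medians of 6529, 22497, 8696 and 25062 UMIs per cell. Depth per cell followed the experiment, with the deeper cells in experiment 2. In experiment 1 a single Gfra1 UMI was enough to pass in 99.1% of the selected cells of either library, against 18.6% in CTRL 2 and 17.0% in BU 2. Cells selected on 1 Gfra1 UMI made up 68.6% and 47.9% in CTRL 1 and BU 1 but 7.14% and 7.55% in CTRL 2 and BU 2. The Gfra1 threshold had 24 cells within 0.2 above it (median level 2.10) and 36 within 0.2 below it (median 1.90). The limit on mitotic genes had 85 cells between 25 and 30 UMIs per 100000 and 93 excluded cells between 30 and 35, and 65 cells held 1 Sox3 UMI while 30 with 2 were excluded. No UMI of the mitotic genes was found in 40.7%, 11.4%, 26.5% and 18.2% of the selected cells of CTRL 1, CTRL 2, BU 1 and BU 2. All others held at least 1. The limit is a rate, so the number of mitotic UMIs it allows in a cell also depends on depth. Non-cycling is therefore a range along a continuous measure and not a separate type.

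Some libraries stood apart in ways that touch the results. CTRL 2 and BU 2 shared 677 deposited cell barcodes, against 11 between CTRL 1 and BU 1 and at most 1 between libraries of different experiments. Of the selected cells, 7 of CTRL 2 (10.0%) and 25 of BU 2 (15.7%) carried a barcode that also occurred in the partner library. In BU 2 these cells were deeper than their namesakes in 24 of 25 cases, with a median of 41616 against 592 UMIs. No barcode was selected in both libraries. RNA of other cell types was also present. The 8 spermatid markers, all detected in every library, summed to 1362, 8597, 941 and 3194 CPM (UMIs per 1e6 UMIs) in CTRL 1, CTRL 2, BU 1 and BU 2, with protamine genes Prm2 or Prm1 at the top (821, 3106, 618 and 1079 CPM). The 8 spermatocyte markers varied less (866, 886, 711 and 859 CPM). Sertoli markers summed to 172, 679, 131 and 777 CPM, led by Clu, with Amh at 0 in all libraries. The immune and endothelial markers reached 11.5, 283, 37.7 and 319 CPM, most of it Cd74 in each library, and Leydig and peritubular markers at most 24.8 CPM, with Insl3, Cyp17a1 and Dcn at 0 throughout. Over 100 UMIs per 100000 of these lists together (spermatocyte markers aside), or a Kit level over 3, marked 40, 19, 39 and 48 of the selected cells. The comparison of BU with CTRL and the share of passing cells were repeated without them, and the tests of whether the BU effect differed between classes of cells were not.

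The 4 genes that name the population were present, and 3 of them took no part in the selection. Gfra1 (ENSMUSG00000025089, GRCm38 chromosome 19, 58235604 to 58455909) stood at 210, 190, 219 and 165 CPM of all UMIs in CTRL 1, CTRL 2, BU 1 and BU 2, and at 0.597 to 16.01 CPM in cells under the threshold, as the rule requires. Foxc2 (chromosome 8, 121116171 to 121118895), a forkhead factor of quiescent stem cells, stood at 162, 107, 108 and 80.4 CPM in the non-cycling cells. It was lower in each library in cycling Gfra1+ cells (122, 82.4, 78.2 and 63.9 CPM) and lower again in cells under the Gfra1 threshold (38.6, 13.7, 34.6 and 23.8 CPM). Egr2 (chromosome 10, 67535475 to 67542188), a zinc finger factor induced by GDNF, stood at 113, 54.2, 113 and 68.5 CPM, above the cycling cells of each library (68.1, 52.6, 74.6 and 48.7 CPM), narrowly so in CTRL 2. Lhx1 (chromosome 11, 84518284 to 84525535), a LIM homeobox factor downstream of GDNF, stood at 60.9, 118, 142 and 187 CPM, and in CTRL 2 the cycling cells were higher (125 CPM). These levels describe classes cut from the same cells and were not tested. The plot of levels in 4 classes of cells shows these genes and 4 genes described later.

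**Figure D1:**
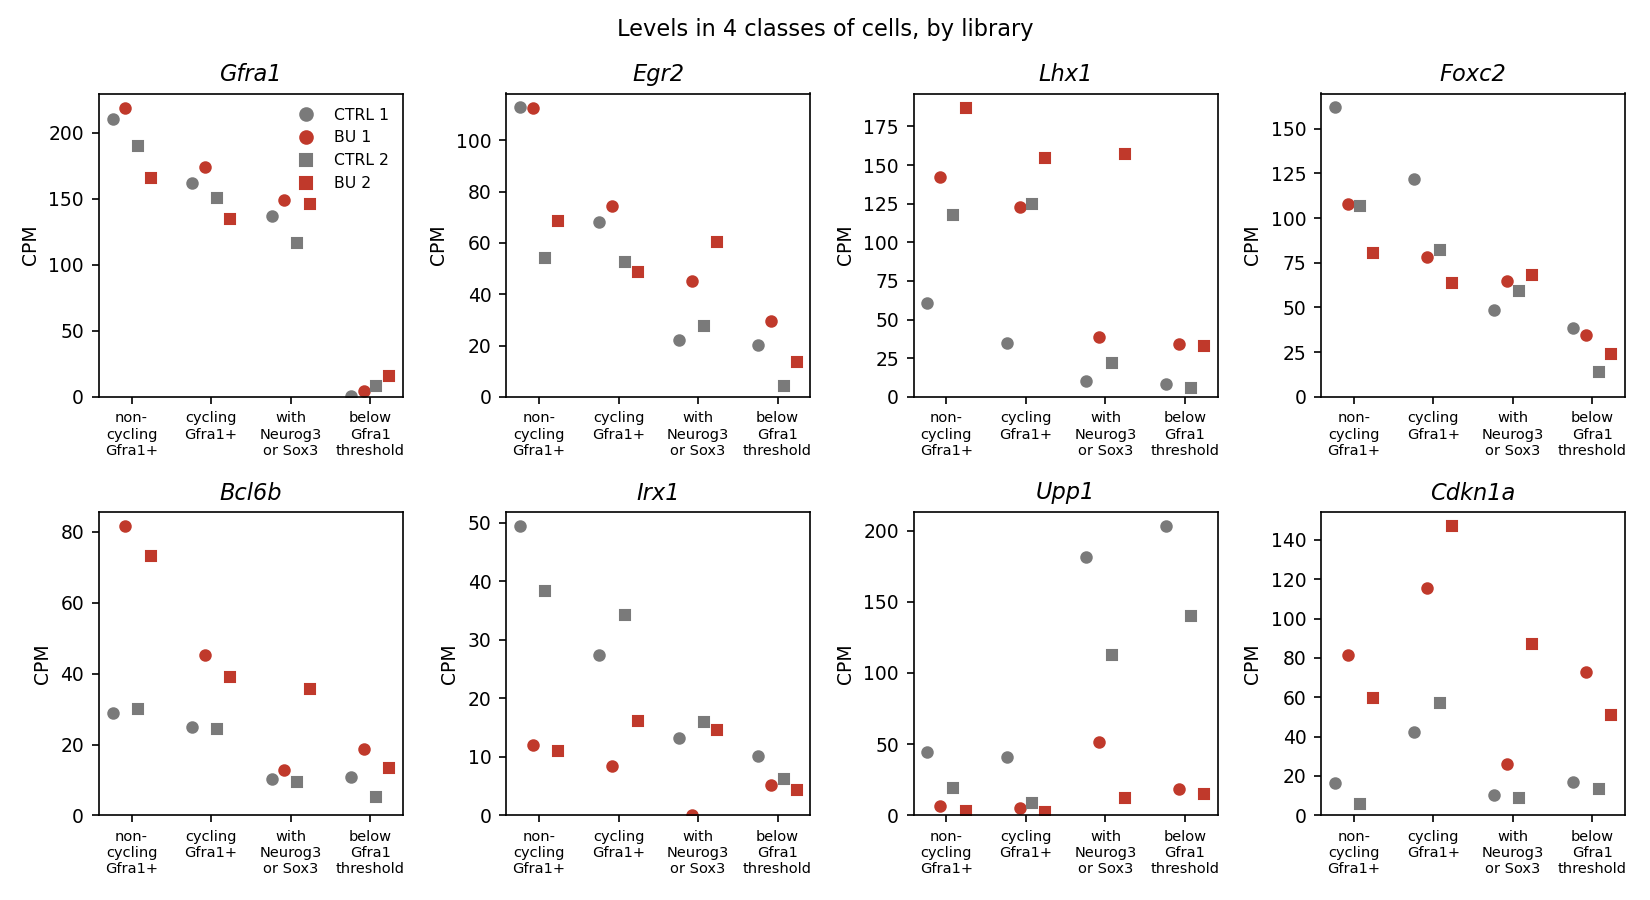
Levels (CPM of all UMIs, y axis, linear, each panel with its own scale) of 8 genes in 4 classes of cells (x axis), 1 point per library (grey CTRL, red BU, circles experiment 1, squares experiment 2). Foxc2 and Egr2 were highest in non-cycling Gfra1+ cells within each library, Bcl6b was higher and Irx1 lower in both BU libraries in that class, and Upp1 was highest outside it.

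After each cell was thinned to 5000 UMIs, a UMI of at least 1 of Egr2, Lhx1 and Foxc2 was held by 77.2% (CTRL 1) and 75.7% (BU 1) of the selected cells in experiment 1, and by 58.0% (CTRL 2) and 57.7% (BU 2) in experiment 2. UMIs of at least 2 of them were held by 31.5% and 36.1% in experiment 1 and by 24.6% and 30.8% in experiment 2. The order follows the experiment more than the treatment. Foxc2 alone was found in 54.9%, 29.0%, 38.6% and 29.5% of thinned cells (61.9%, 77.1%, 53.02% and 62.3% unthinned). As a background, cells with over 1% spermatid UMIs, which should lack Foxc2, held it in 5.26%, 1.09%, 9.09% and 1.64% when thinned, at unthinned medians of 9979, 21270, 16091 and 21138 UMIs. In experiment 1 those cells were few (57 and 11 thinned cells) and 29.8% and 45.5% of them held Zbtb16, a spermatogonial transcription factor gene, so they were not free of spermatogonial RNA.

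Other stem cell transcripts outside the rule were likewise higher in the selected cells than under the Gfra1 threshold in each library. Eomes, a T-box factor of a subset of stem cells, stood at 38.5, 23.5, 47.7 and 35.1 CPM in the selected cells against 1.98 to 10.4 CPM under the Gfra1 threshold. Cycling Gfra1+ cells held Eomes at 32.6, 34.3, 33.5 and 37.0 CPM, above the selected cells in CTRL 2 and BU 2. Etv5, a GDNF-induced ETS factor, stood at 134, 68.3, 109 and 56.3 CPM against 8.68 to 36.2 CPM. The RNA-binding protein gene Nanos2 stood at 25.01, 19.4, 14.2 and 18.5 CPM, which exceeded cycling Gfra1+ cells in every library (16.1, 8.39, 9.56 and 10.1 CPM). Upp1, a uridine phosphorylase gene and progenitor marker, ran the other way. It stood at 44.2, 19.4, 6.82 and 2.80 CPM here, and at 203, 140, 18.2 and 14.9 CPM under the threshold.

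Busulfan was followed by a larger share of non-cycling Gfra1+ cells among all passing cells but a smaller share among Gfra1+ cells. In experiment 1 they made up 7.29% of passing CTRL cells (exact 95% binomial interval 6.40 to 8.26%) and 10.7% of passing BU cells (9.39 to 12.1%). In experiment 2 they made up 6.25% in CTRL (4.90 to 7.83%) and 12.6% in BU (10.8 to 14.5%). These intervals cover counting error only. The groups did not overlap. The CTRL mean was 6.77% ± 0.734 and the BU mean 11.6% ± 1.32 (SD, n = 2 each), so that the means lay 4.87 percentage points apart, more than either spread. The gap was 3.42 points within experiment 1 and 6.33 points within experiment 2. Between the means it was 1.59 points with a Gfra1 level over 3 and 1.75 with mitotic genes under 10 UMIs per 100000. Without the cells whose barcode occurred in the partner library it was 7.27 points. By an exact two-sided permutation test p was 0.33, and 2 libraries against 2 can give no smaller value. Of Gfra1+ cells, the non-cycling cells made up 38.6% and 32.7% in the CTRL libraries and 24.9% and 30.1% in the BU libraries, a change of -8.19 points between the means (exact permutation p = 0.33). Both directions held after thinning every cell to 5000 UMIs, with shares of passing cells of 5.94%, 5.86%, 9.08% and 10.9% and shares of Gfra1+ cells of 45.2%, 44.0%, 29.5% and 36.9%. Cycling Gfra1+ cells without progenitor transcripts numbered 252, 47, 595 and 230, and non-cycling Gfra1+ cells with Neurog3 or over 1 Sox3 UMI numbered 68, 47, 13 and 20. A share of sorted cells can move because other cells were lost, and cell numbers per testis were not measured in these files.

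**Figure D2:**
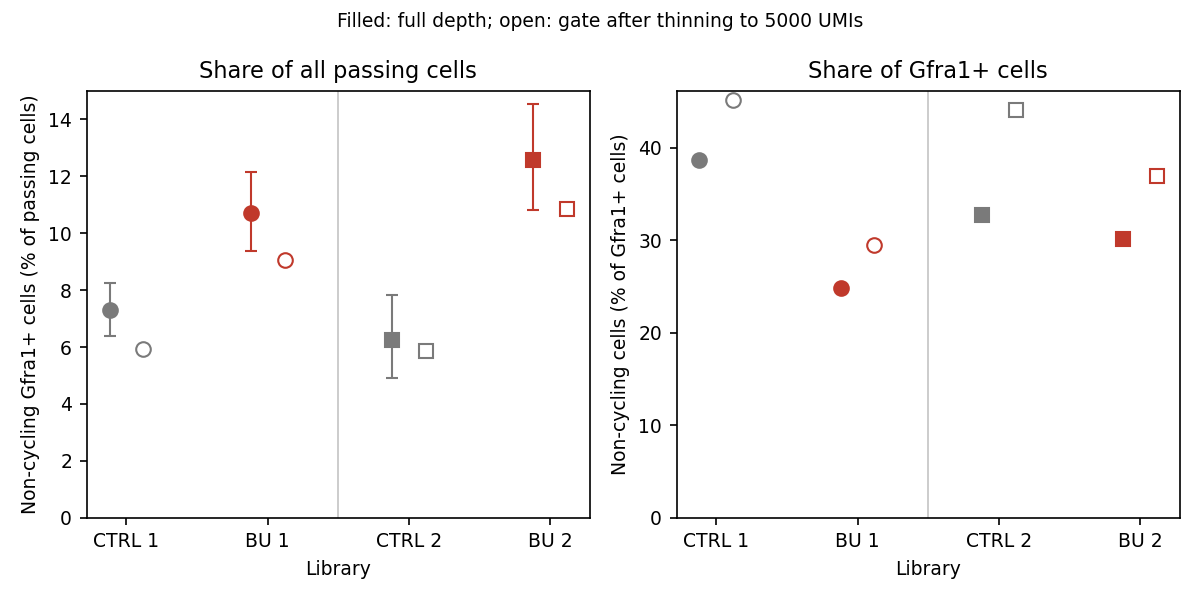
Non-cycling Gfra1+ cells by library (x axis) as a percentage of all passing cells (left, y axis) and of Gfra1+ cells (right, y axis); filled symbols are full depth with exact 95% binomial intervals (left), open symbols are values after thinning to 5000 UMIs. Both BU libraries were above both CTRL libraries on the left and below them on the right.

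To ask how the non-cycling Gfra1+ cells of BU mice differed from those of CTRL mice, UMIs of the selected cells were added up within each library. The 4 profiles were then tested by edgeR (quasi-likelihood, TMM-scaled), with Benjamini-Hochberg adjustment at 0.05. From here on, levels in CPM are after TMM scaling unless stated otherwise. With condition as the only term, 0 of 10894 genes tested passed (0%), with 138 at an unadjusted p under 0.05, and DESeq2 called 1. The experiment was by far the larger source of spread. With the experiment as a replicate block, 98 genes passed, 58 higher in BU (0.532%) and 40 lower (0.367%), and 962 had an unadjusted p under 0.05. DESeq2 with the same block called 4. The block left 1 residual degree of freedom, and edgeR took the spread of each gene from an estimate shared over all genes. The small blocked p-values rest on that estimate and not on a gene's own spread between pools. The blocked calls depended on the cells. Without the cells whose barcode occurred in the partner library only 7 remained, S100a6, Cdkn1a, S100a11, S100a10, Plaur, Upp1 and Cd74, all among the 98. With cells picked after thinning, 8 passed, of which 7 were among the 98. Below, a gene is said to have risen or fallen only where it passed with the block, and beside it stands either the range of its adjusted p over 7 other choices of cells (fewer where low counts left it untested) or the number of those choices in which it passed again. Of the 48 named genes that passed, 1 (Plaur, tested in 5 of the 7 choices) passed in the same direction in every choice tested. In all, 16 passed in 4 or more and 1 (Magea5) in none, so most of these calls depended on the cells counted. The choices overlap in their cells and are not independent checks. Removing doublets took out 5 of the 670 selected cells. A mitochondrial share under 10% kept 218, 67, 208 and 156 of the 226, 70, 215 and 159 cells in CTRL 1, CTRL 2, BU 1 and BU 2. Passing again in these choices was largely given in advance. A second description needs no test, namely genes whose levels did not overlap between the groups and were at least 1.5-fold apart within each experiment. Counts of genes higher or lower without overlap, or that separated the groups, use both conditions. These were 205 genes higher in BU (1.88% of those tested) and 242 lower (2.22%), and 68 of the 98 blocked calls were among them.

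**Figure D3:**
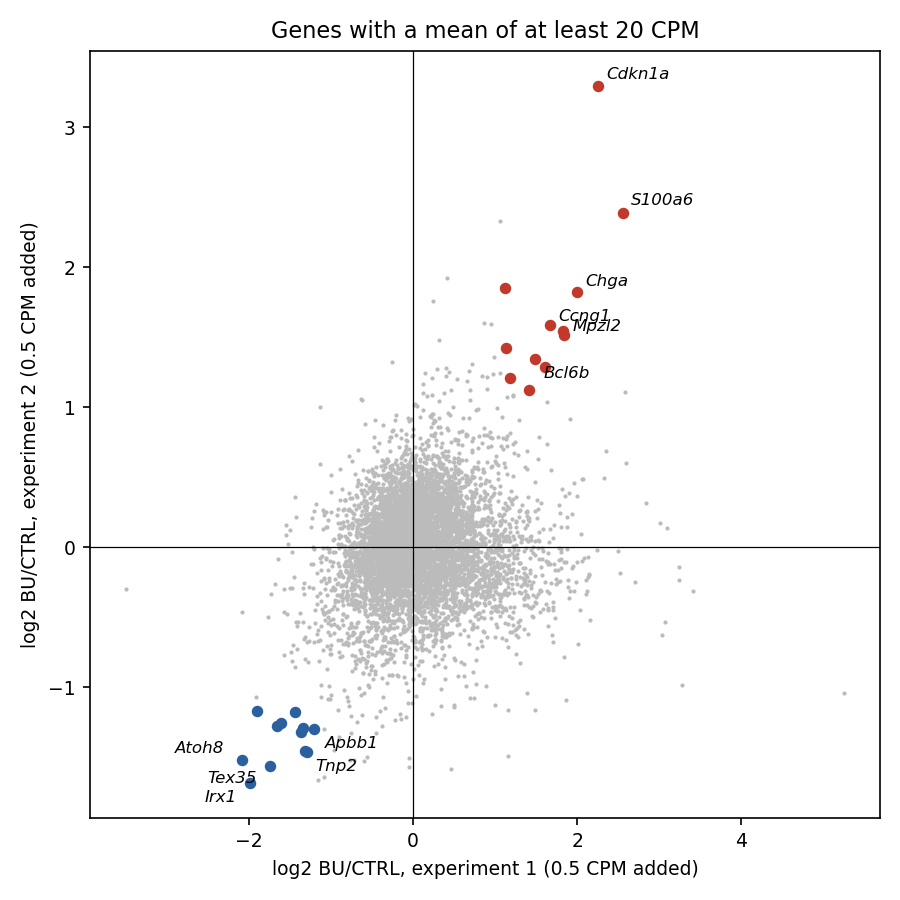
Log2 ratio of BU to CTRL in non-cycling Gfra1+ cells within experiment 1 (x axis) and experiment 2 (y axis), 0.5 CPM added to each level, 1 point per gene with a mean of at least 20 CPM. Red and blue mark the 12 largest rises and falls ranked by the smaller of both ratios; Cdkn1a and S100a6 lie farthest along the diagonal, and Irx1, Tex35 and Atoh8 lead the falls.

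Ranked by the smaller of the within-experiment ratios, S100a6 and Cdkn1a had the largest rises of genes with a mean of at least 20 CPM. Cdkn1a encodes the cyclin-dependent kinase inhibitor p21, a direct target of the DNA damage-responsive factor p53. Cdkn1a (ENSMUSG00000023067, chromosome 17, 29090976 to 29100727) stood at 16.9 and 5.70 CPM in the CTRL libraries and at 82.2 and 60.6 in the BU libraries. Neither CTRL library came near either BU library, and the level was 4.76-fold higher in experiment 1 and 9.84-fold higher in experiment 2. The log2 fold change was 2.67 (SE 0.55), and the gene passed with the block only (edgeR adjusted p = 8.05e-11, 3.37e-11 to 0.0740 over the other choices of cells). The largest of these came from a stricter limit of 10 UMIs per 100000 on mitotic genes. In thinned cells a Cdkn1a UMI was found in 6.52%, 1.45%, 15.8% and 13.5% (7.08%, 10.0%, 23.7% and 32.1% unthinned). The spermatid-rich cells held it in 12.3%, 2.17%, 9.09% and 4.92% when thinned. The thinned CTRL shares of the selected cells were below these and the thinned BU shares above them. In experiment 1 the spermatid-rich cells were not free of spermatogonial RNA, and in BU 1 they numbered 11, so they are a weak background there. Unthinned, the spermatid-rich cells of BU 1 held a Cdkn1a UMI in 38.5%, above the 23.7% of the selected cells, at medians of 16091 and 8696 UMIs per cell. More cycling Gfra1+ cells held it in each library (10.8%, 14.0%, 29.8% and 30.6% thinned), and their level was 42.6, 57.2, 116 and 147 CPM of all UMIs.

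Of the 15 tested genes of the list of p53 and its targets, 7 were higher without overlap and 0 lower, against 1.88% and 2.22% of all genes tested. With the block 3 rose (Cdkn1a, Ccng1 and Pmaip1), against 0.532% of all genes tested. Over the other choices of cells that count ran from 0 under the stricter mitotic limit to 5 without cells that carried RNA of other types. Over all genes, 3 of 8465 and 77 of 9578 passed in these choices, in either direction. The median log2 fold change of the list was 0.54, against 0.01 over all genes tested. Ccng1 (ENSMUSG00000020326, chromosome 11, 40748552 to 40755311), which encodes cyclin G1 and feeds back on p53, stood at 27.2, 18.3, 87.5 and 55.8 CPM in CTRL 1, CTRL 2, BU 1 and BU 2. Its level was 3.17-fold and 3.00-fold higher in the 2 experiments, and its blocked edgeR adjusted p was 0.000142 (0.000111 to 0.229 over the other choices of cells). Ccng1 was found in 13.04%, 11.6%, 21.8% and 20.5% of thinned cells (15.04%, 32.9%, 31.2% and 50.3% unthinned), against 8.77%, 0%, 36.4% and 1.64% of the spermatid-rich cells, where BU 1 rests on 11 cells and lay above the selected cells. Pmaip1, encoding the pro-apoptotic protein NOXA, stood at 92.7, 66.2, 191 and 115 CPM, and rose with the block (edgeR adjusted p = 0.0407, 0.0181 to 0.602 over the other choices). In both genes each BU library exceeded each CTRL library.

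The other members of the 7 were higher in both BU libraries without passing either fit. Bbc3, encoding the pro-apoptotic protein PUMA, stood at 2.59 and 2.28 CPM in CTRL and 7.42 and 8.82 in BU, resting on 4 UMIs in each CTRL library. Phlda3, an inhibitor of AKT signalling, stood at 6.49 and 14.8 CPM in CTRL against 27.6 and 24.8 in BU. The antiproliferative gene Btg2 stood at 55.1 and 35.9 CPM against 87.0 and 82.5. The kinase gene Plk2 stood at 4.54 and 1.71 CPM against 10.1 and 7.39, the CTRL 2 value resting on 3 UMIs. Its ratio was 2.22 in experiment 1 (counting interval 0.893 to 6.25) and 4.10 in experiment 2 (1.28 to 21.0). For both Bbc3 and Plk2 the interval in experiment 1 included no change. Both had too few CTRL UMIs to pass the low-count filter without the BU libraries. Their part in the count of 7 is therefore not independent support. Other members of the list lay closer together. Trp53 itself stood at 72.0 and 55.9 CPM in CTRL and 104 and 82.0 in BU, without overlap but under 1.5-fold apart, Mdm2, the ubiquitin ligase gene of the p53 feedback loop, at 122 and 90.7 against 132 and 88.9, and Bax, a mitochondrial death effector, at 341 and 212 against 327 and 260. Eda2r had too few UMIs to test. The count of 7 was 5 of 15 without the shared barcodes and 6 of 13 without cells that carried RNA of other types. It was 6 of 14 with cells picked after thinning and 3 of 11 under the stricter mitotic limit. Over all genes tested in these choices, 2.08%, 2.23%, 2.41% and 1.54% in turn were higher without overlap.

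**Figure D4:**
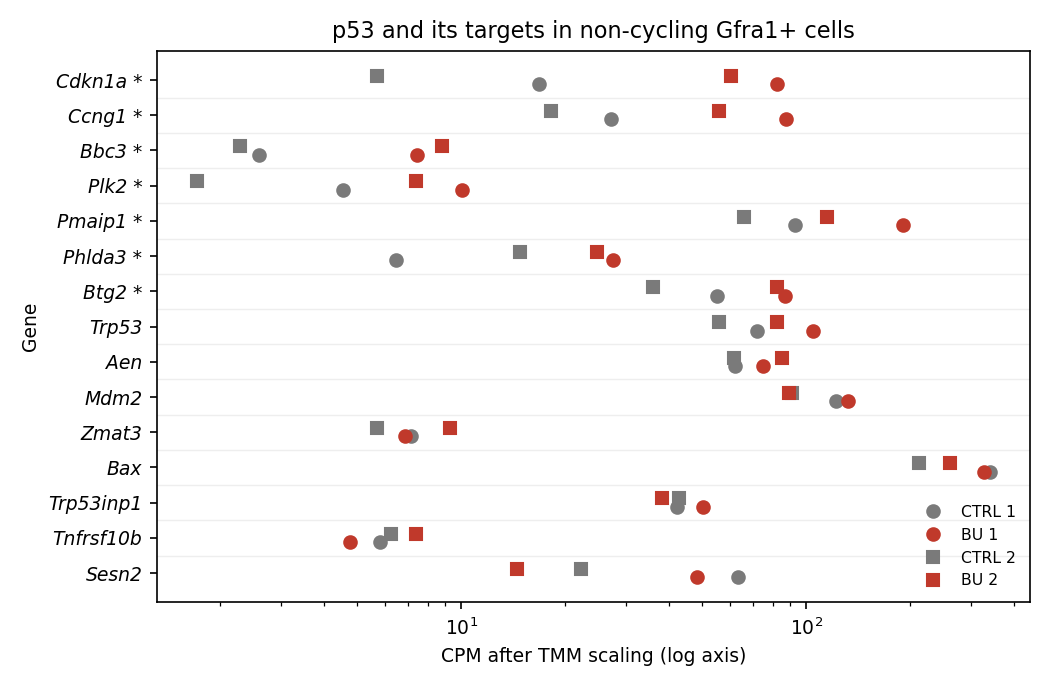
Levels (CPM after TMM scaling, x axis, log scale) of the 15 tested genes of the p53 list (y axis) in non-cycling Gfra1+ cells, 1 point per library (grey CTRL, red BU, circles experiment 1, squares experiment 2). Asterisks mark the 7 genes that did not overlap and were at least 1.5-fold apart within each experiment; Cdkn1a shows the widest gap.

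The stretches of 250 bases before the RefSeq start sites of Cdkn1a and Ccng1 are shown because these genes rose together and p53 is known to bind there. Capitals mark matches to the 10-base consensus of the p53 half-site, which is a part of a full response element. The consensus reads the same on both strands, so that one search covers both. The sequences are from RefSeq on GRCm38.p6, 5′ to 3′ on the gene's strand.
Cdkn1a, chr17:29090729-29090978, plus strand: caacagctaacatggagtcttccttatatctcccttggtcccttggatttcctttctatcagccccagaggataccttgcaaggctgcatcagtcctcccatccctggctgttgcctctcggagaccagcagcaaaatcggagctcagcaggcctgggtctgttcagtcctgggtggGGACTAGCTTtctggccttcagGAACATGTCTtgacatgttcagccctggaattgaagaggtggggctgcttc
Ccng1, chr11:40755287-40755536, minus strand: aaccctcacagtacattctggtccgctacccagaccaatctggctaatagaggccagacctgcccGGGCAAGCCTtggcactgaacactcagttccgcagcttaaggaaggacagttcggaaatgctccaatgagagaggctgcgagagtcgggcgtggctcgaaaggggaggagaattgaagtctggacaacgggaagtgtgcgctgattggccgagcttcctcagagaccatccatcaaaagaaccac
The upstream Cdkn1a start had matches beginning 73 and 51 bases before the start site, and Ccng1 had 1 at 185 bases. A second RefSeq start of Cdkn1a (chr17:29093519-29093768 for the 250 bases before it, plus strand) had 0 matches and is not printed. Such a match was held by 7.13% of all 32851 promoters tabulated and by 8.20% of genes. Of the p53 list, 12 genes were in the table and 6 of them held a match in some promoter, and of the 7 non-overlapping genes 6 were in the table and 2 held one. A match is a description of these letters and not evidence of binding in these cells.

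Among G1 regulators, 2 of 15 tested genes were higher without overlap and 1 lower, against 1.88% and 2.22% of all genes tested. Beside Cdkn1a, the cyclin D2 gene Ccnd2, a GDNF-responsive driver of G1 progression, stood at 959 and 564 CPM in CTRL and 1493 and 982 in BU, with BU 2 only just above CTRL 1. It rose with the block (log2 fold change 0.70, edgeR adjusted p = 0.0233, 0.0207 to 0.299 over the other choices of cells). Cdkn1c, the imprinted gene for the inhibitor p57, ran opposite to Cdkn1a, at 88.9 and 119 CPM in CTRL and 52.0 and 41.3 in BU, and fell with the block (log2 fold change -1.16, edgeR adjusted p = 0.00779, 0.00353 to 0.416 over the other choices). S phase genes had a median log2 fold change of 0.42. Of 18 tested, 2 were higher and 0 lower without overlap, against 1.88% and 2.22% of all genes tested, and 1 rose with the block, against 0.532%. The ribonucleotide reductase subunit gene Rrm2 stood at 10.4, 7.99, 38.2 and 24.3 CPM and rose with the block (edgeR adjusted p = 0.00591, 0.00428 to 0.193 over the other choices). The replication licensing gene Cdc6 stood at 7.78, 7.99, 23.3 and 19.1 CPM and did not pass. Under the stricter mitotic limit none of 15 tested S phase genes was higher without overlap, against 1.54% of all genes tested in that choice, and the median was 0.17. Of the 20 tested genes of G2 and mitosis that the rule did not use, 0 were higher or lower without overlap and 0 passed with the block. The rule cut on mitotic genes, so levels of cell cycle genes in these cells are limited by it.

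Genes of the GDNF pathway differed among themselves. Of the 16 tested genes for the GDNF receptor and its targets 4 were higher without overlap and 0 lower, against 1.88% and 2.22% of all genes, and all 4 (Bcl6b, Lhx1, Nefm and Ccnd2) rose with the block, against 0.532%. In 4 of the 7 other choices of cells, 0 of the list passed with the block. The median log2 fold change was 0.25. Bcl6b (ENSMUSG00000000317, chromosome 11, 70224128 to 70229798), a GDNF-induced transcriptional repressor needed for stem cell maintenance, stood at 29.2 and 29.1 CPM in CTRL and 82.7 and 74.6 in BU. The CTRL libraries were alike and both BU libraries lay 2.80-fold and 2.54-fold above their partners (log2 fold change 1.43, SE 0.32). Its blocked edgeR adjusted p was 0.00120 (0.00118 to 0.167 over the other choices of cells). Lhx1 stood at 61.6 and 114 CPM in CTRL and 144 and 191 in BU, 2.32-fold and 1.67-fold higher, and rose with the block (edgeR adjusted p = 0.0185, 0.0149 to 0.463 over the other choices). Nefm, encoding a neurofilament subunit and a transcript of the GFRα1+ state, stood at 69.4, 141, 162 and 301 CPM in CTRL 1, CTRL 2, BU 1 and BU 2, so the groups did not overlap and the BU levels were 2.33-fold and 2.13-fold those of CTRL. It rose with the block (edgeR adjusted p = 0.000750, 0.000211 to 0.231 over the other choices). Without the shared barcodes, Bcl6b and Lhx1 alone of the 16 were higher without overlap, against 2.08% of all genes tested in that choice.

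The receptor tyrosine kinase gene Ret, in contrast, stood at 98.6 and 78.2 CPM in CTRL and 68.9 and 62.5 in BU, and did not pass. With cells picked after thinning, Ret and the kinase gene Src were lower without overlap, against 2.48% of all genes tested in that choice. Etv5 stood at 136 and 66.2 CPM in CTRL against 110 and 57.5 in BU, where the groups overlapped. The list of 15 stem cell transcription factors had 2 genes higher without overlap (Bcl6b and Lhx1) and 1 lower, with a median of -0.07. The lower one was Pdx1, a homeobox factor best known from the pancreas, at 27.9 and 17.1 CPM in CTRL and 10.6 and 6.20 in BU, which did not pass with the block. Eomes (38.9 and 22.8 CPM in CTRL, 48.3 and 35.8 in BU), Id4 (88.9 and 104 against 72.1 and 109) and Nanos2 (25.3 and 18.8 against 14.3 and 18.8) overlapped between the groups. FGF receptors and feedback regulators had 2 of 13 genes higher without overlap and 0 lower, against 1.88% and 2.22% of all genes. These were Dusp4, a phosphatase gene induced by ERK signalling (18.2 and 19.97 CPM against 33.4 and 35.3), and Il17rd, a membrane inhibitor of FGF signalling (16.9 and 32.5 against 49.3 and 50.5), and neither passed with the block.

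The 12 largest falls included Irx1 and Atoh8. Irx1 (ENSMUSG00000060969, chromosome 13, 71957921 to 71963723), an Iroquois homeobox gene, stood at 49.9 and 37.1 CPM in the CTRL libraries and at 12.2 and 11.2 in the BU libraries. The CTRL levels were 3.97-fold and 3.21-fold the BU levels, and the log2 fold change was -1.89 (SE 0.38), with a blocked edgeR adjusted p of 0.000202 (0.000151 to 0.113 over the other choices of cells). A thinned cell held an Irx1 UMI in 24.5%, 13.04%, 6.44% and 3.21% of cases (27.0%, 42.9%, 7.91% and 15.7% unthinned), against 1.75% in the spermatid-rich cells of CTRL 1 and 0 in those of the other libraries. Atoh8 (ENSMUSG00000037621, chromosome 6, 72206177 to 72235577), a basic helix-loop-helix factor gene, stood at 51.2 and 30.2 CPM in CTRL and 11.7 and 10.3 in BU. It fell with the block (edgeR adjusted p = 0.000501, 0.000334 to 0.386 over the other choices). Thinned cells held an Atoh8 UMI in 19.6%, 8.70%, 5.45% and 3.21% of cases (24.8%, 42.9%, 9.77% and 20.1% unthinned). The spermatid-rich cells held it in 35.1%, 35.9%, 45.5% and 29.5%, above the selected cells of every library. They also lay above thinned cells under the Gfra1 threshold (21.2%, 18.4%, 7.12% and 10.7%). The spermatid-rich cells therefore do not serve as a background for Atoh8, and its shares were not set against another. Without cells holding RNA of other types the blocked log2 fold change of Atoh8 was -1.93 (edgeR adjusted p = 0.000334). In cells under the Gfra1 threshold the levels of Atoh8 were 50.3, 47.8, 17.1 and 51.6 CPM of all UMIs. Other falls among the 12 largest were Gnaz, a G protein subunit gene (55.1 and 25.1 CPM against 21.7 and 8.82), and Apbb1, an adaptor of the amyloid precursor protein (85.0 and 55.9 against 36.6 and 22.4). Both were called with the block and again in 3 of 7 and 3 of 7 other choices of cells.

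The remaining 8 of the 12 largest falls were Tex35, Ccdc54, H1fnt, Tnp2, Pwwp2b, 4930503B20Rik, Otub2 and Paqr5, all higher in CTRL 2 than in CTRL 1. All 8 fell with the block, but most other choices of cells lost the calls. Tex35 passed again in 2 of the 4 choices in which it could be tested, Pwwp2b and 4930503B20Rik in 2 of 5, and Ccdc54, H1fnt, Otub2 and Paqr5 in 2 of 6, with edgeR adjusted p up to 0.887 for Ccdc54, 0.942 for Otub2 and 0.960 for H1fnt. With a Gfra1 level over 3 the direction of Ccdc54, H1fnt, Tnp2, Otub2 and Paqr5 was reversed. Several of these are known from spermatids, such as H1fnt, a spermatid linker histone gene (33.1, 97.6, 12.7 and 39.6 CPM), and the transition protein gene Tnp2 (115, 1325, 46.7 and 480 CPM). Of the 8 tested spermatid markers, 4 fell with the block (Prm1, Prm2, Tnp1 and Tnp2) and 0 rose, against 0.367% and 0.532% of all genes tested. None separated the groups, and CTRL 1 lay below BU 2 for each of these 4. Of 7 other choices of cells, Prm1, Tnp1 and Tnp2 fell again in 3 each and Prm2 in 2. With condition as the only term, the log2 fold changes of Prm1, Tnp1 and Tnp2 were positive when CTRL 2 was left out. The median log2 fold change of the list was -1.14. In cells without RNA of other types it was 0.07 and 0 of 5 tested were called, but those cells were removed by these same markers. Without the shared barcodes it was 0.10, also with 0 called, and with a Gfra1 level over 3 it was 1.52. In that last choice 3 of 5 tested markers (Smcp, Prm1 and Prm2) were higher in BU without overlap, and 3 rose with the block, Prm2 by a log2 fold change of 2.36 (edgeR adjusted p = 6.72e-24) and Prm1 by 1.45 (edgeR adjusted p = 1.04e-06). Over all genes tested in that choice, 2.59% were higher without overlap and 78 of 8923 passed with the block in either direction. The spermatocyte list had 0 of 7 genes called or separated and the Sertoli list 0 of 7. No Leydig or peritubular marker had enough UMIs to test, and of the immune and endothelial markers Cd74 alone did (9.73, 185, 29.2 and 321 CPM, called with the block and again in 4 of 6). With condition as the only term, the log2 fold change of Cd74 ran from -1.77 to 4.18 when 1 library was left out.

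Of the 6 tested progenitor genes, 0 were higher and 2 (Upp1 and Nanos3) lower without overlap, against 1.88% and 2.22% of all genes tested. Both fell with the block, against 0.367% of all genes tested, and the median log2 fold change of the list was -0.76. The rule had already removed cells with Neurog3 or over 1 Sox3 UMI, so part of this list was limited by selection. Upp1 (chromosome 11, 9118103 to 9136170) stood at 44.7 and 18.8 CPM in CTRL and 6.89 and 2.86 in BU, with CTRL levels 6.12-fold and 5.75-fold those of BU. Its log2 fold change was -2.76 (SE 0.68), with a blocked edgeR adjusted p of 1.45e-06 (1.42e-06 to 0.145 over the other choices of cells). Upp1 was found in 13.04%, 7.25%, 2.97% and 1.28% of thinned cells (16.4%, 27.1%, 5.12% and 6.92% unthinned), against 28.1%, 5.43%, 0% and 1.64% of the spermatid-rich cells. In CTRL 1 and BU 2 the share lay below that of the spermatid-rich cells, which in experiment 1 were not free of spermatogonial RNA. Nanos3, an RNA-binding protein gene of germ cells, stood at 73.3 and 52.5 CPM against 27.0 and 31.5 and passed again in 1 of 7 other choices. Without the shared barcodes Lin28a and Piwil4 joined them as lower without overlap, 4 of 6, against 2.46% of all genes tested in that choice. Sohlh1, a helix-loop-helix factor of differentiation entry, stood at 228, 83.9, 130 and 64.4 CPM in CTRL 1, CTRL 2, BU 1 and BU 2, so that experiments differed more than groups. Among 8 tested genes of differentiation entry 3 were higher without overlap and 0 lower (median 0.55), against the same 1.88% and 2.22%. These were Ccnd2, Sohlh2, a partner of Sohlh1 (34.4 and 15.4 CPM in CTRL, 75.8 and 42.2 in BU), and Cyp26a1, a retinoic acid-degrading enzyme gene (2.59 and 3.42 against 9.01 and 8.35). Ccnd2 and Sohlh2 rose with the block, against 0.532% of all genes tested, each passing again in 3 of 7 other choices. Cyp26a1 did not pass (edgeR adjusted p = 0.313), and at its low CTRL levels it passed the low-count filter through the BU libraries alone. Ccnd2 is also counted among the G1 regulators and the GDNF targets. Kit, the receptor gene that marks differentiating spermatogonia and was selected against in the sort, had too few UMIs to test.

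The S100 genes encode small calcium-binding proteins, of which S100A10 pairs with annexin A2 as a receptor for plasminogen at the cell surface. S100a6 (ENSMUSG00000001025, chromosome 3, 90612882 to 90624181) stood at 11.03 and 15.4 CPM in CTRL and 67.3 and 82.7 in BU, 5.89-fold and 5.23-fold higher. Its log2 fold change was 2.50 (SE 0.38) and its blocked edgeR adjusted p 6.92e-10 (2.38e-10 to 0.0519 over the other choices of cells). In thinned cells the share with a UMI was 3.80%, 8.70%, 21.8% and 28.2% (4.87%, 18.6%, 33.0% and 56.6% unthinned), against 3.51%, 1.09%, 9.09% and 3.28% in the spermatid-rich cells. S100a10 stood at 6.49, 37.7, 41.4 and 81.8 CPM in CTRL 1, CTRL 2, BU 1 and BU 2, with BU 1 barely above CTRL 2, and rose with the block (edgeR adjusted p = 0.000425, 6.25e-05 to 0.203 over the other choices). S100a11 (29.8, 224, 117 and 308 CPM) rose with the block although the groups overlapped (edgeR adjusted p = 0.00298, 6.31e-10 to 0.463 over the other choices). Its log2 fold change of 0.75 with condition as the only term ran from -0.14 to 2.84 when 1 library was left out, and was negative without CTRL 1 and without BU 2. Of the 12 tested S100 and annexin genes, 2 were higher without overlap and 1 lower, against 1.88% and 2.22% of all genes. The lower one, Anxa6, stood at 8.43 and 7.99 CPM against 4.24 and 4.53. It rested on 8 to 19 UMIs per library and did not pass with the block (edgeR adjusted p = 0.703).

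The receptor gene for urokinase, Plaur (ENSMUSG00000046223, chromosome 7, 24462484 to 24475968), was almost silent in CTRL, with 1 UMI in CTRL 1 and 2 UMIs in CTRL 2. BU 1 held 32 and BU 2 held 101. The ratio of BU to CTRL shares of UMIs was 26.2 in experiment 1 (95% counting interval 4.37 to 1065) and 20.1 in experiment 2 (5.41 to 168). Its levels were 0.648, 1.14, 17.0 and 24.1 CPM, and with the block its edgeR adjusted p was 6.60e-08 (6.64e-08 to 0.0347 over 5 other choices of cells). With so few CTRL UMIs, Plaur passed the low-count filter through the BU libraries alone. Its p is therefore a description and not independent support. The share of thinned cells with a UMI was 0% (0 of 184) and 0% (0 of 69) in CTRL, 6.93% in BU 1 and 6.41% in BU 2, against 0%, 0%, 0% and 3.28% in the spermatid-rich cells. Of the 7 tested genes of the plasminogen activator system, Plaur and S100a10 were higher without overlap and 0 lower (median 0.68), against 1.88% and 2.22% of all genes. The activator gene Plat stood at 8.43 and 23.4 CPM in CTRL and 18.0 and 30.8 in BU, and Plau, which encodes urokinase itself, had too few UMIs to test.

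Among adhesion and surface molecules, 1 of 12 tested genes was higher and 1 lower without overlap, against 1.88% and 2.22% of all genes. Both passed with the block, against 0.532% higher and 0.367% lower of all genes. Epcam, an epithelial adhesion molecule gene, stood at 119 and 176 CPM in CTRL and 271 and 310 in BU, and Cd24a, a surface glycoprotein gene, at 46.0 and 12.6 against 7.95 and 6.68. Epcam passed again in 4 of 7 other choices of cells and Cd24a in 2 of 6. Mcam (134 and 133 CPM in CTRL, 146 and 164 in BU) differed little. Of the 19 tested genes that the study named in Gfra1+ cells, 5 were higher (Plaur, Epcam, Ezh2, Txn1 and Bcl6b) and 2 lower (Upp1 and Pdx1) without overlap. The study chose that list on these samples, so the count is not independent evidence. Other large rises were Mpzl2, an adhesion molecule gene (28.5 and 28.0 CPM in CTRL, 103 and 80.8 in BU), Chga, encoding a secretory granule protein (9.73 and 15.4 against 40.3 and 55.8), Trf, encoding transferrin (16.2 and 27.4 against 50.4 and 67.5), Lgals1, encoding a galectin (58.4 and 59.9 against 133 and 139), Ramp2, a receptor accessory protein gene (19.5 and 14.3 against 42.9 and 52.9), and Magea5 (14.3 and 15.4 against 38.7 and 34.1). All 6 rose with the block. Mpzl2 passed again in 5 of 7 other choices, Trf and Lgals1 in 4 of 7, Chga and Ramp2 in 3 of 7 and Magea5 in 0 of 7, and the largest adjusted p among them was that of Magea5 (edgeR adjusted p = 0.0498, 0.0520 to 0.532 over the other choices of cells).

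Immediate early genes, which answer growth factor and stress signals, had 3 of 12 tested members higher without overlap and 0 lower (median 0.04), against 1.88% and 2.22% of all genes. Egr1 stood at 70.0 and 65.6 CPM in CTRL and 126 and 154 in BU, and Ier2 at 49.3 and 35.9 against 92.8 and 84.4. Both rose with the block, against 0.532% of all genes tested. Most other choices of cells lost the calls, Egr1 passing in 3 of 7 (adjusted p up to 0.378 in edgeR) and Ier2 in 2 of 7 (up to 0.445). Fos stood at 24.6 and 20.5 CPM against 43.5 and 36.0 and did not pass. Jun (20.1, 53.1, 36.1 and 73.0 CPM in CTRL 1, CTRL 2, BU 1 and BU 2) overlapped. Testes were dissociated with enzymes before sorting, which is known to induce such genes, and its part here was not tested.

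The lists that follow had 0 to 2 genes without overlap in either direction, against 1.88% higher and 2.22% lower of all genes tested, and nothing is read from counts this small. Chromatin regulators had 2 of 13 tested genes higher, Ezh2, a histone methyltransferase gene (22.1 and 26.2 CPM against 48.3 and 40.1), and Uhrf1, which maintains DNA methylation (108 and 78.7 against 210 and 130). The chromatin remodeller gene Hells rose with the block although CTRL 2 and BU 2 were close (133, 234, 348 and 273 CPM in CTRL 1, CTRL 2, BU 1 and BU 2), and passed again in 1 of 7 other choices. Repair of crosslinks and damage checkpoints had 0 of 16 higher and 1 lower without overlap. That one was Mgmt, which encodes a repair enzyme of alkylated guanine (88.2 and 61.6 CPM against 42.4 and 37.7) and did not pass with the block. The checkpoint kinase gene Chek1 (12.3, 25.7, 53.6 and 36.2 CPM) rose with it (edgeR adjusted p = 0.0498, 0.0440 to 0.566 over the other choices), passing again in 1 of 7, and was 1.40-fold higher in experiment 2. The thioredoxin and peroxiredoxin list had 1 of 17 higher, Txn1 (52.5 and 73.6 CPM against 112 and 141, called with the block and again in 2 of 7), and glycolysis enzymes had 1 of 16, Aldoa (285 and 292 against 458 and 554, also called and again in 4 of 7). Imprinted genes had 1 of 11 higher, Mest (18.8 and 21.7 CPM against 39.8 and 52.0), and 1 lower, Cdkn1c. No gene was both without overlap and 1.5-fold apart in each experiment among 10 pan-undifferentiated and germ cell genes, 11 interferon-stimulated genes, 12 genes of Id and BMP response, 12 genes of amino acid and ATF4 response or 13 mitochondrial genes, although mt-Nd4l and mt-Nd5 passed with the block and again in 3 of 7 and 2 of 7 other choices. With condition as the only term, the log2 fold change of mt-Nd4l ran from -1.35 to 3.69 when 1 library was left out. The levels of mt-Nd5 did not overlap (190 and 417 CPM in CTRL, 489.9 and 459 in BU), but the ratio in experiment 2 was 1.10. Zbtb16, for example, stood at 250 and 183 CPM in CTRL and 270 and 127 in BU, and the RNA helicase gene Ddx4 at 274 and 274 against 296 and 251.

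**Figure D5:**
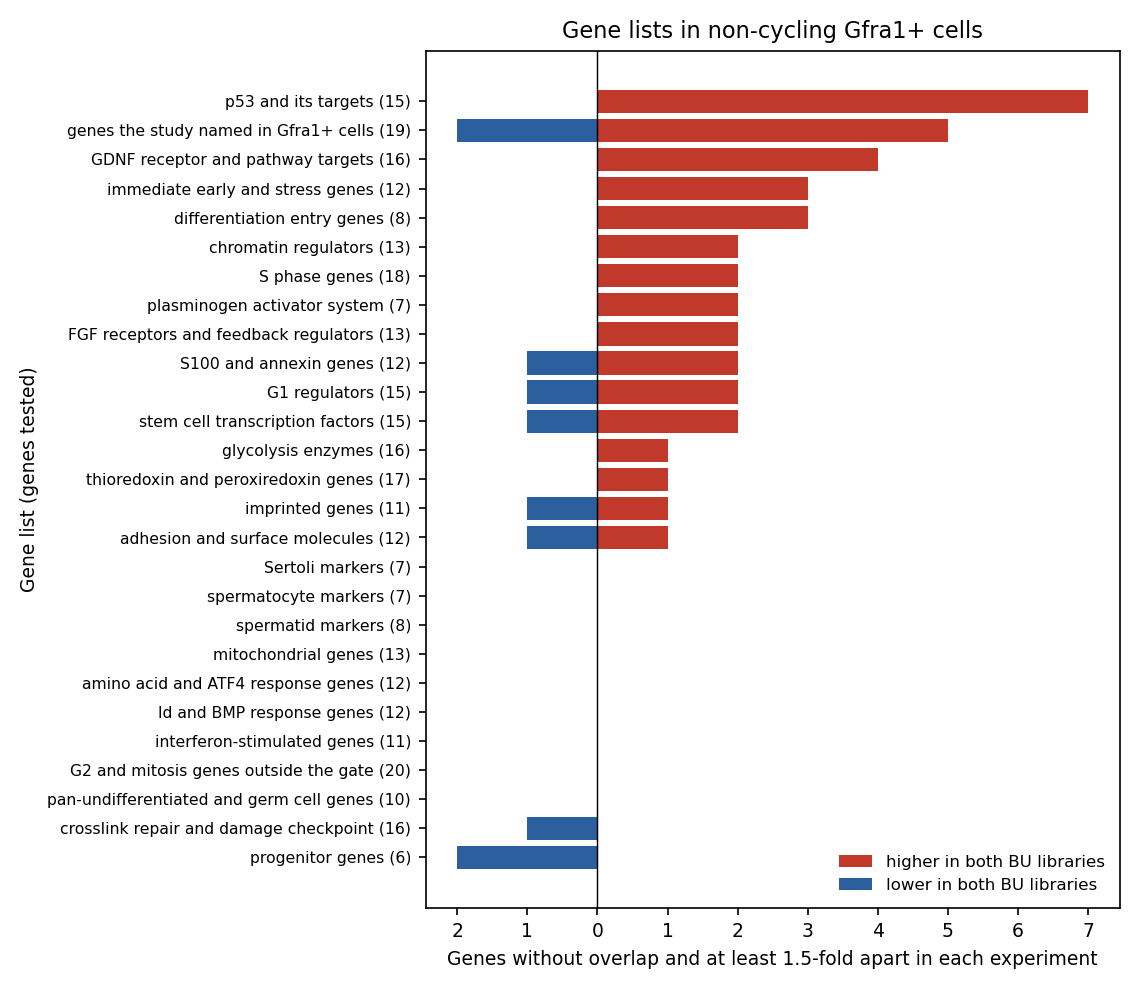
Number of genes per list (x axis; lists on the y axis with the number tested in brackets) that did not overlap between the groups and were at least 1.5-fold apart within each experiment in non-cycling Gfra1+ cells, red to the right for higher in BU and blue to the left for lower. The p53 list has the most, 7 of 15, against 1.88% of all genes tested.

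Whether the response of non-cycling cells differed from that of cycling Gfra1+ cells was tested as an interaction of class and condition with a term for each library. None of 11596 genes passed in edgeR (0%; 187 had an unadjusted p under 0.05), and none in DESeq2. For Cdkn1a the log2 fold change was 2.67 in non-cycling and 1.49 in cycling cells, a difference of 1.16 (SE 0.53) that did not pass (edgeR adjusted p = 1). For Ccng1 the changes were 1.65 and 1.67, and the difference was -0.07. For Plaur they were 4.43 and 2.59, for S100a6 2.50 and 1.72, for Upp1 -2.76 and -2.79, and for Irx1 -1.89 and -1.22, and none of these differences passed. For Bcl6b they were 1.43 and 0.85, a difference of 0.59 that did not pass either. Against non-cycling Gfra1+ cells that held Neurog3 or over 1 Sox3 UMI, 0 of 11342 genes passed (0%; 284 had an unadjusted p under 0.05), with 13 and 20 such cells in BU 1 and BU 2. Nothing in these tests marks the BU response as particular to non-cycling cells, and a difference that did not pass is not shown to be absent.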

How the data were processed

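Single-cell suspensions of sorted A_undiff were profiled by droplet 3′ RNA-seq in 4 libraries. The authors deposited UMI counts per gene and cell, made with Cell Ranger (3.0.2 in the matrix headers). The study's text names mm10, while the submitters' processing notes name GRCm39 and Seurat 3.2, so the build is uncertain and gene coordinates are those of GENCODE on GRCm38. The libraries of both experiments listed different gene sets, and the 27514 shared genes were used. Cell totals and levels come from these deposited counts.

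The cells and the gene lists were chosen with earlier results of these data known. Counts were summed per library over the selected cells and tested with edgeR 4.0.16 (quasi-likelihood, TMM, low-count filter, condition only, as fixed in the design), with DESeq2 1.42.0 as an alternative (R 4.3.3, Python 3.11.15, scanpy 1.11.5, scipy 1.17.1). CTRL and BU libraries of the same number shared a kit and a sequencing lane per the labels, so the numbers pair them. Deviations of same-numbered libraries from their group means correlated at 0.70, and the first principal component (71.3%) separated the experiments. Both 2-library groups are pools of mice, so no p-value measures the spread between single mice. In the blocked fit the prior degrees of freedom were infinite, so each gene's spread was replaced by an estimate shared over all genes. Its p-values therefore do not measure a gene's own spread between pools. Doublets were scored with scrublet, and 152 of 7493 cells (2.03%) were marked and removed only in an alternative. The genes named are the label markers and rule genes, the 12 largest rises and falls by the smaller within-experiment ratio among genes with a mean of at least 20 CPM, and, of each list, genes that passed or did not overlap, otherwise abundant members. The tests were tried on simulated data. Thinning drew 5000 UMIs per cell and left shallower cells out.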

Additional observations from a re-analysis of the deposited data

How the results depend on the processing

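With condition as the only term, 0 genes passed. The replicate block (the experiment as a paired term) gave 98, DESeq2 gave 1, no filter on low counts gave 11, and leaving out 1 library at a time gave 0 to 15, with 7 without BU 1 and 15 without BU 2, where the lone library is assumed to vary like the others. The blocked count was 4 in DESeq2, 8 after thinning, 3 under the stricter mitotic limit, 7 without shared barcodes, 54 without TMM and 64 with upper quartile scaling. It was 98 with a mitochondrial share under 10%, 80 without the filter, 78 with a Gfra1 level over 3, 77 without cells holding RNA of other types and 70 without doublets. Of these, 91, 71, 21, 54 and 70 were among the 98. The block fit had 1 residual degree of freedom. Its estimated prior degrees of freedom were infinite where 98 passed, and were 14.8 after thinning, 13.8 under the stricter mitotic limit and 14.9 without shared barcodes. Genes that did not overlap numbered 447, and 1214 without the filter, and 1315 to 3385 without 1 library, where fewer values must separate (1831 without CTRL 1, 3385 without CTRL 2, 1315 without BU 1 and 2438 without BU 2). The interaction with cycling cells gave 0, 6 without the filter, and 0 to 8 without 1 library (8 without BU 1). That with cells holding Neurog3 or Sox3 gave 0, 10 without the filter, and 0 to 119 without 1 library (119 without CTRL 2 and 11 without CTRL 1). The cause of these changes was not tested.

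The difference in share of passing cells, 4.87 points, was 1.59 with a Gfra1 level over 3, 1.75 under the stricter mitotic limit, 7.27 without shared barcodes and 3.94 to 5.81 without 1 library. As a share of Gfra1+ cells it was -8.19, and -11.4 after thinning. Of 978 alternative log2 fold changes of 63 named genes, 959 kept their direction. The 19 reversals fell in 11 genes. Leaving out 1 library gave -0.14 to 2.84 for S100a11, -1.77 to 4.18 for Cd74 and -1.35 to 3.69 for mt-Nd4l (negative without CTRL 1 and without BU 2), and -3.97 to 1.21 for Tnp2, -4.14 to 2.04 for Tnp1 and -3.51 to 1.12 for Prm1 (positive without CTRL 2). A Gfra1 level over 3 gave 0.59 for Ccdc54, 0.34 for H1fnt, 0.47 for Tnp2, 0.68 for Otub2, 0.79 for Paqr5, 2.32 for Prm2 and 1.52 for Prm1. Without cells holding RNA of other types Tnp2 was 0.13 and Prm1 0.068, and without shared barcodes Prm2 was 0.10. The alternatives on shared barcodes, on the thinned share of Gfra1+ cells and those that join the block to another choice were chosen after seeing the data.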

Other observations

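The non-cycling Gfra1+ cells that held Neurog3 or over 1 Sox3 UMI, which the rule set aside, had levels of their own. Lin28a, an RNA-binding protein gene of progenitors, stood at 131, 108, 51.8 and 32.4 CPM of all UMIs in CTRL 1, CTRL 2, BU 1 and BU 2 in these cells, against 50.7, 27.7, 30.9 and 19.9 CPM in the cells kept. Upp1 stood at 181, 113, 51.8 and 12.3 CPM in them. Foxc2 was lower than in the cells kept in each library (48.6, 58.9, 64.7 and 68.1 CPM). These classes were cut on related transcripts from the same libraries, and the differences were not tested.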
